A study of Homo sapiens with 5 samples.

Results

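Regions that held a PHF8 peak in exactly 1 of 3 chromatin immunoprecipitation sequencing (ChIP-seq) replicates are described. They were chosen by merging the 3 deposited peak lists wherever peaks overlapped by at least 1 bp and by keeping each merged region that contained peaks of 1 list only. Of 21804 merged regions, 3810 met this rule (17.5%), 2355 of them from replicate A, 933 from replicate B1 and 522 from replicate B2. Peaks of 2 lists made up 1925 of the other regions, and peaks of all 3 made up 16069, called shared regions here. The number of one-replicate regions fell to 2405 when peaks up to 200 bp apart were joined and to 1729 when those up to 1000 bp apart were. Membership was chosen on the peak calls themselves, so fold enrichment, q-value, width and fragment number are given as a description without a test.

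The cells were of the established human melanoma line SKMEL-147, and PHF8 was precipitated with an anti-PHF8 antibody from Abcam (ab36068). The series holds 3 PHF8 ChIP libraries (A, B1 and B2) and 2 input libraries without antibody (A and B). All 3 ChIP libraries form 1 group with no treatment named in their labels, although the series design mentions a PHF8 loss-of-function model made with sgRNA in the same line. The labels do not say whether the replicates came from separate cultures, so the spread between them may be technical, and the inputs enter only through the enrichment values of the peak lists.

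PHF8 is a histone lysine demethylase of the Jumonji family. Its plant homeodomain finger binds trimethylated lysine 4 of histone H3, the mark of active promoters, and its catalytic domain removes methyl groups from repressive marks such as H3K9me1, H3K9me2 and H4K20me1. In most cell types it is found at CpG-rich promoters close to transcription start sites (TSSs), where it acts as a coactivator.

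The summit base and 50 bp on either side of it of the strongest one-replicate regions are shown as examples. The summit of a shared region beside 1 of them is shown too, and CpG dinucleotides are in capitals. The windows vary, and that of GUCY1A2 held as many CpGs as the shared one, so single windows do not stand for their class. All are on the plus strand of hg19, the build of the files, and regions whose summit window touched an annotated UTR were passed over, among them NFE2L2 and RUNDC3B in B1. For each replicate these are, of the regions left, the strongest one-replicate region in a TSS window (within 1 kb of an annotated TSS), the strongest whose nearest protein-coding gene had such a peak in that replicate only, and the strongest outside all TSS windows.
PMEL, replicate A, chr12:56367130-56367230, upstream of PMEL and beside a shared region: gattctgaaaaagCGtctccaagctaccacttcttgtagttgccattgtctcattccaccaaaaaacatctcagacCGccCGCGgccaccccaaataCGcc
RAB5B, shared region beside it, chr12:56367946-56368046, intron: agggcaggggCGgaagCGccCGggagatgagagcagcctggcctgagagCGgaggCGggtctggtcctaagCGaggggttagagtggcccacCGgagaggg
FRRS1, replicate A, chr1:100231983-100232083, intron: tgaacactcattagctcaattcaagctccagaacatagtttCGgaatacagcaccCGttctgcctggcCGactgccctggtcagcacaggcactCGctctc
DEGS2, replicate A, chr14:100659614-100659714, intergenic: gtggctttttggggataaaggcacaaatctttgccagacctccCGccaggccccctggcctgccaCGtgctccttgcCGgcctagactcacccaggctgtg
ELF1, replicate B1, chr13:41593245-41593345, intron: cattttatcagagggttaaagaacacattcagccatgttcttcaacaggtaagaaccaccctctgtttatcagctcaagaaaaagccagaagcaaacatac
GUCY1A2, replicate B1, chr11:106888621-106888721, coding exon: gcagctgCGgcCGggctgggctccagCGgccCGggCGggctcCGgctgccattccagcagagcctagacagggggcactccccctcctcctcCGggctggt
TBC1D5, replicate B1, chr3:17443662-17443762, intron: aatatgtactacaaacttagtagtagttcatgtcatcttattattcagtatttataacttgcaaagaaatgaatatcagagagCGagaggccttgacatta
ZNF300, replicate B2, chr5:150284834-150284934, intergenic: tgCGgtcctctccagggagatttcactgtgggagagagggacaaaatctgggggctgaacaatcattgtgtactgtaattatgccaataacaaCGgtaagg
SPAAR, replicate B2, chr9:35908431-35908531, intergenic: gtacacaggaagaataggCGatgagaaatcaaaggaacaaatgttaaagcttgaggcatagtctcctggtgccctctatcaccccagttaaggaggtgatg
HSPG2, replicate B2, chr1:22257917-22258017, intron: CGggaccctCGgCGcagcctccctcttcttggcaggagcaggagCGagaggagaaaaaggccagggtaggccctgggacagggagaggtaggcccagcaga

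The summit window of the shared region in RAB5B held 7 CpGs and was 70.3% G or C. The windows of the one-replicate regions held between 0 (ELF1) and 7 (GUCY1A2) CpGs and ranged from 30.7% G or C at TBC1D5 to 76.2% at GUCY1A2.

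One-replicate peaks were weak in all 3 lists. The median fold enrichment over the modelled background was 5.41, 4.31 and 4.27 respectively for A, B1 and B2, against 24.3, 13.3 and 12.6 in peaks of shared regions of the same lists. Peaks in regions of 2 replicates lay just outside the rule and had medians of 6.46, 4.77 and 4.64. The ranges of one-replicate and shared peaks overlapped, since one-replicate peaks reached 14.6-fold, 13.4-fold and 7.61-fold respectively while shared peaks began at 2.70-fold, 2.11-fold and 2.47-fold.

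The number of ChIP fragments stacked at each summit could be recovered from the fold enrichment and the p-value, which follow from 2 numbers, the fragments and the expected background. One-replicate peaks rested on medians of 15, 13 and 14 fragments respectively, two-replicate peaks on 18, 15 and 15, and shared peaks on 70, 44 and 43. Median widths were 182, 179 and 175 bp for one-replicate peaks and 590, 508 and 468 bp for shared peaks. The total number of reads per library is not given in the sources used here, so the depth behind a missing peak in the other replicates is unknown.

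Membership fell steeply with the number of fragments. In A, 64.0% of peaks with up to 10 fragments were in one-replicate regions (95% Wilson interval 57.0 to 70.3%), 33.8% of those with 16 to 20, 11.4% of those with 21 to 30 and 1.04% of those with 31 to 50. For B1 these bins gave 57.9%, 6.45%, 0.509% and 0.0227%, while B2 had 45.5%, 4.48%, 0.407% and 0.0221%. At equal fragment numbers a peak of A was thus more often alone than one of B1 or B2, from 11 fragments up to 50, where the intervals of A lay above those of the others. The genome-wide background was lower in A, at 1.57 fragments, than in B1 (1.93) or B2 (2.04), so the same fragment number was a higher enrichment in A. These intervals cover counting error only.

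**Figure D1:**
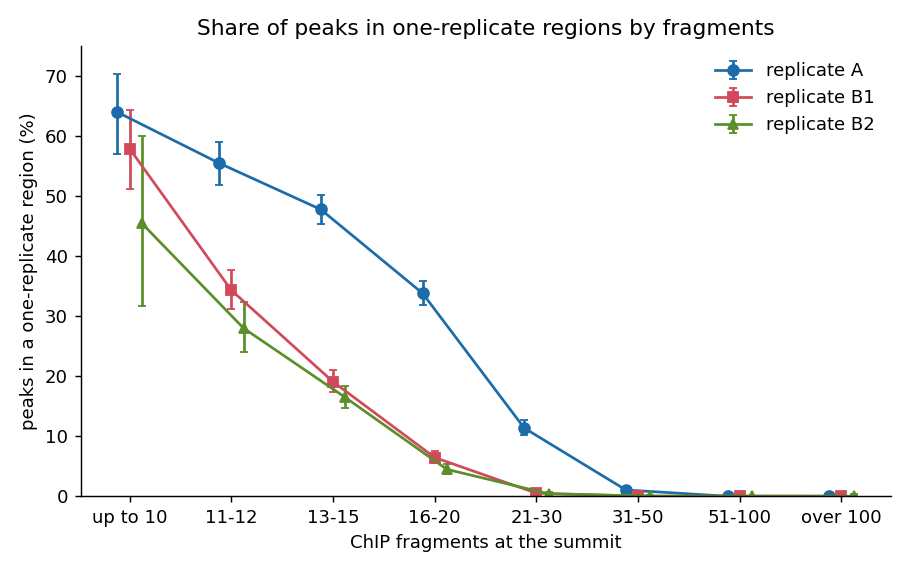
Share of peaks that lay in one-replicate regions (vertical axis, percent) by the number of ChIP fragments at the summit (horizontal axis, bins), with 95% Wilson intervals, for replicates A, B1 and B2. The share fell from 64.0%, 57.9% and 45.5% in the lowest bin to 1.04% or less above 30 fragments, and A lay highest from 11 to 50 fragments.

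The regions found in 2 replicates were mostly pairs with A: 1159 joined A and B1, 557 joined A and B2, and 209 joined B1 and B2. One-replicate peaks were 11.0%, 4.47% and 2.59% of the lists of A, B1 and B2. Many had a peak of another replicate close by without overlap: for 689 of the 2355 members from A (29.3%), 329 of 933 from B1 (35.3%) and 203 of 522 from B2 (38.9%) the nearest peak of another replicate was within 200 bp.

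One-replicate peaks were less often at promoters than shared peaks of the same list. A TSS window was touched by 61.3%, 57.9% and 58.0% of them respectively, and by 91.8%, 92.0% and 92.0% of shared peaks. The difference averaged -32.8 percentage points ± 2.04 (SD, n = 3) and had the same sign in all 3 replicates (two-sided exact sign-flip test, p = 0.25, the smallest that 3 replicates allow). Two-replicate peaks were intermediate in each list, at 65.9%, 64.0% and 63.5%.

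Because weak peaks differ from strong ones, the comparison was repeated on peaks with 12 to 20 fragments in both classes, an alternative chosen after seeing the data. It held 1731, 661 and 439 one-replicate peaks of A, B1 and B2 beside 1425, 3072 and 3219 shared peaks. The difference in TSS window share was then -21.0 points ± 4.01 (SD, n = 3), with 59.2%, 56.4% and 59.5% of one-replicate and 76.1%, 81.4% and 80.5% of shared peaks in a window. Strength was not matched within this range. Among peaks with 13 to 15 fragments 47.8%, 19.1% and 16.5% were in one-replicate regions, and 33.8%, 6.45% and 4.48% of those with 16 to 20. The remaining difference can therefore still hold a difference in strength.

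The sequence under one-replicate summits was poorer in CpG. The window of 250 bp on either side of a summit was called CpG-island-like where it was at least 50% G or C and its CpG number was at least 0.6 of that expected from its base composition. By this measure 34.1%, 31.2% and 27.4% of one-replicate summits (A, B1, B2) were CpG-island-like, against 82.5%, 82.2% and 81.8% of shared summits. The difference averaged -51.3 points ± 3.02 (SD, n = 3) and was negative in 3 of 3 replicates (exact sign-flip test, p = 0.25, the smallest possible). Median G or C content was 55.3%, 56.9% and 55.5% in one-replicate windows and 66.5%, 66.1% and 66.1% in shared ones, a difference of -10.3 points ± 1.02 (SD, n = 3, same exact test, p = 0.25).

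The gap in CpG-island-like share remained inside and outside promoters. Within TSS windows 47.1%, 46.9% and 40.3% of one-replicate summits in A, B1 and B2 were CpG-island-like, compared with 85.7%, 85.3% and 84.9% of shared summits. Outside them the shares were 13.7%, 9.67% and 9.59% against 46.9%, 46.6% and 46.4%. With 12 to 20 fragments in both classes the overall difference was -29.0 points ± 4.20 (SD, n = 3), and that in median G or C content was -5.72 points ± 0.70. Strength was again not matched within that range.

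**Figure D2:**
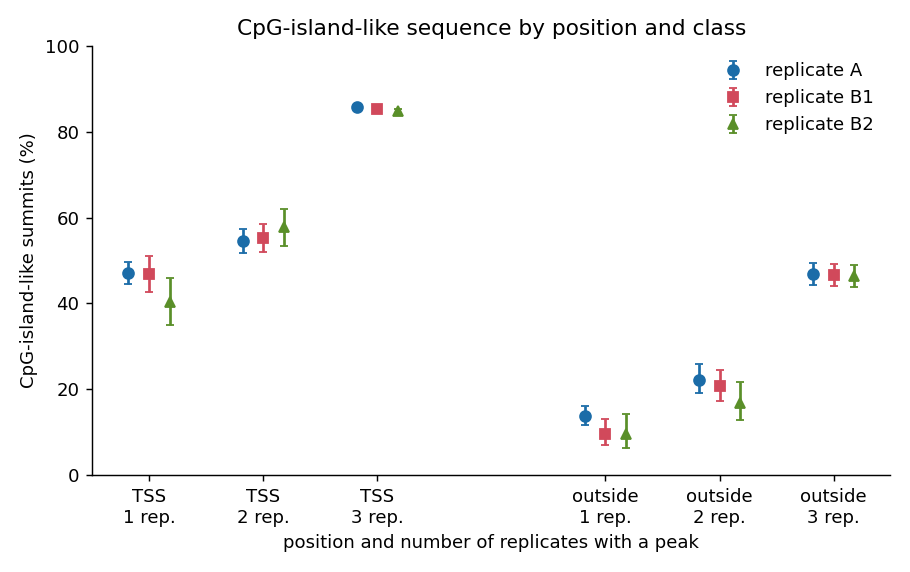
Share of summits with CpG-island-like sequence (vertical axis, percent) in TSS windows and outside them, for peaks in regions of 1, 2 or 3 replicates, with 95% Wilson intervals and 1 point per replicate. In every replicate the share rose with the number of replicates, from 40.3 to 47.1% up to 84.9 to 85.7% in TSS windows and from 9.59 to 13.7% up to 46.4 to 46.9% outside.

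One-replicate regions often lay next to a shared region. The distance between edges was at most 1 kb for 41.1%, 43.3% and 46.6% of the members from A, B1 and B2, for 48.1% of two-replicate regions and for 36.9% of shared regions, measured to another shared region. Within 5 kb these shares were 49.1%, 51.4% and 51.0%, with 56.3% of two-replicate and 43.0% of shared regions. Two-replicate regions were thus nearer still at both distances. Within 200 bp the share of A, 26.3%, was like the 26.4% of shared regions. The difference from shared regions within 5 kb was 7.51 points ± 1.22 (SD, n = 3) and positive in 3 of 3 replicates (exact sign-flip test, p = 0.25, the smallest possible). With peaks up to 1000 bp apart joined it was 1.13 points ± 3.07 and no longer of one sign in all replicates (exact p = 0.5), and it was 12.5 points where merging needed 50% of the shorter peak. All 3 comparisons use the same shared regions, so they are not independent of each other. The distances also come from the peak positions and merging that define membership, so the test cannot separate this difference from the rule.

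**Figure D3:**
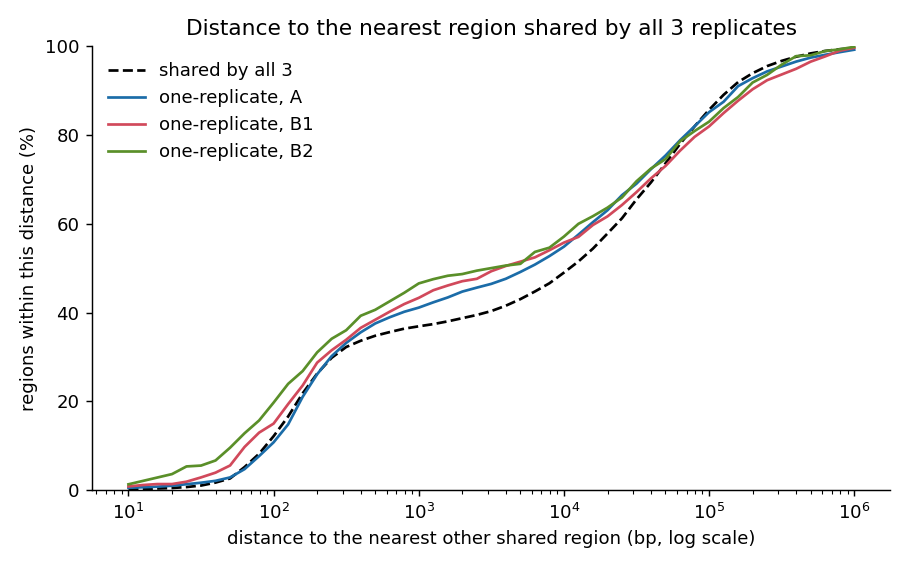
Cumulative share of regions (vertical axis, percent) by the distance between edges to the nearest other region shared by all 3 replicates (horizontal axis, bp, log scale), for one-replicate regions of A, B1 and B2 and for shared regions. The one-replicate curves lay above the dashed shared curve at 5 kb, with 49.1 to 51.4% against 43.0%, and below it at 100 kb, with 81.9 to 85.1% against 85.6%.

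By these distances the members fell into 3 kinds, a division made after seeing the data and described without a test. The largest, 1615 regions (42.4%), lay within 1 kb of a shared region, 922 (24.2%) stood alone in a TSS window, and 1273 (33.4%) stood alone outside all TSS windows. Standing alone means only that no shared region was within 1 kb. A peak of another replicate was still within 200 bp for 118 of the 922 (12.8%) and 70 of the 1273 (5.50%). Standing-alone promoter regions were a larger share of the members in A, at 26.9% (95% Wilson interval 25.1 to 28.7%), than in either B1, at 20.4% (17.9 to 23.1%), or B2, at 19.0% (15.8 to 22.6%).

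The regions beside a shared region were mostly parts of promoters already occupied. A TSS window was touched by 83.7%, 86.6% and 84.0% of them respectively, and the gene with the nearest TSS had a window peak in all 3 replicates for 93.5%, 94.6% and 95.9%. Part of this follows from the definition, since these members lie within 1 kb of a shared region. Of shared peaks 91.8%, 92.0% and 92.0% touched a TSS window. The summits of these members, however, avoided the position that shared summits took. Among summits within 1 kb of a TSS, 62.3%, 60.0% and 60.1% of shared ones in A, B1 and B2 lay in the first 200 bp downstream of it, compared with 18.3%, 18.4% and 16.5% of those beside a shared region. In A, 38.2% of the latter lay 100 to 400 bp upstream of the TSS, and 58.0% were upstream in all (95% Wilson interval 54.6 to 61.4%). The same stretch held 26.1% in B1 and 17.5% in B2, with 44.2% (39.0 to 49.6%) and 40.7% (34.1 to 47.8%) upstream in all. A summit cannot lie inside its neighbouring shared peak, so part of this displacement follows from the definition.

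The strongest member of A was of this kind. It lay 79 bp upstream of a TSS of PMEL, which encodes the structural protein of the melanosome fibrils, at chr12:56367044-56367320, with 14.6-fold enrichment on 37 fragments. The shared region 417 bp away, at chr12:56367738-56368348 on the side of RAB5B, had peaks of 39.4-fold, 27.8-fold and 27.7-fold in the 3 lists. The strongest member of B2 was also beside a shared region, 339 bp upstream of ZNF300, a zinc finger gene, at chr5:150284791-150285022 with 7.61-fold enrichment on 24 fragments, and its nearest shared region was 244 bp away.

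Members that stood alone in a TSS window were placed differently in the 3 replicates. Of those within 1 kb of a TSS, 50.8%, 37.8% and 26.6% of summits (A, B1, B2) lay in the first 200 bp downstream (95% Wilson intervals, counting error within 1 library only, 46.9 to 54.7%, 31.1 to 44.9% and 18.7 to 36.3%). Upstream of the TSS lay 34.2%, 36.7% and 54.3% of them, beside 30.5%, 31.8% and 31.9% of shared summits. In B2, 28.7% of only 94 such summits lay 100 to 400 bp upstream, beside 18.1% of shared summits, so the upstream shares of B2 were further from those of shared peaks than the ones of A and B1. CpG-island-like sequence was found under 49.9%, 47.4% and 34.3% of them. The nearest gene had a window peak in all 3 replicates, at the same or another of its TSSs, for 28.3%, 34.7% and 38.4%.

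**Figure D4:**
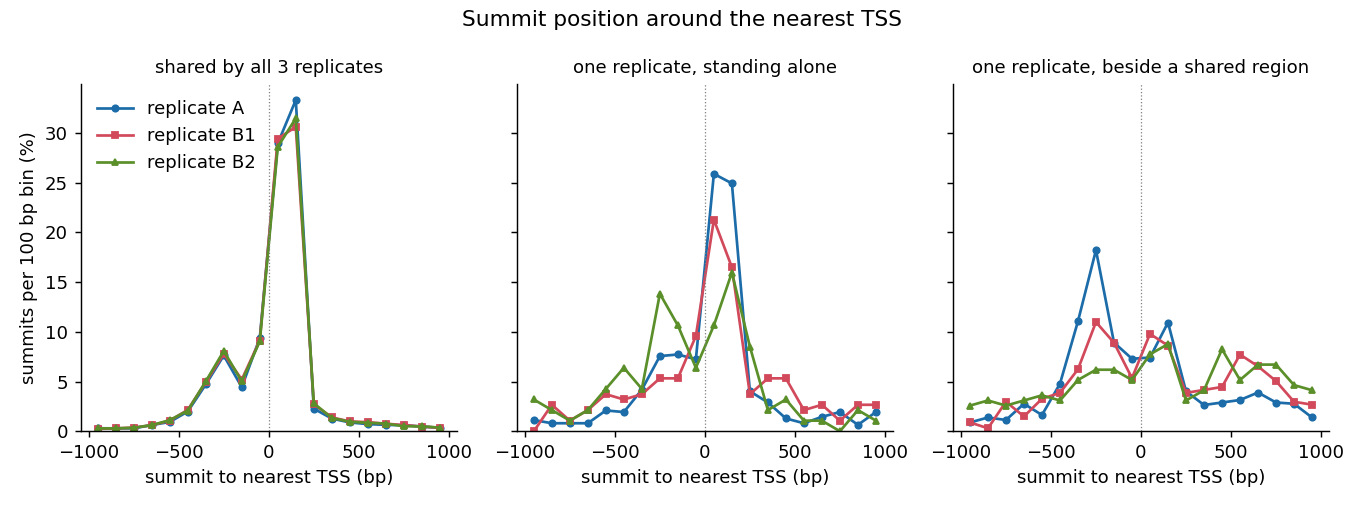
Position of summits relative to the nearest TSS (horizontal axis, bp, downstream positive) as a share of summits per 100 bp bin (vertical axis, percent), for shared peaks, one-replicate regions standing alone in a TSS window and one-replicate regions within 1 kb of a shared region, by replicate. Shared summits gathered in the first 200 bp downstream (60.0 to 62.3%), standing-alone summits less so (26.6 to 50.8%), and those beside a shared region least (16.5 to 18.4%).

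Members outside TSS windows and away from shared regions lay far from genes' starts. Their median distance to the nearest TSS was 7382.5, 8840 and 8867 bp for A, B1 and B2. Of the 1273, 626 summits were in introns and 555 between genes. The nearest TSS belonged to a protein-coding gene for 44.2%, to a long non-coding RNA gene for 32.4% and to a pseudogene for 13.8%. CpG-island-like sequence was rare, at 11.3%, 7.37% and 7.78% in A, B1 and B2.

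The strongest members outside TSS windows in A were an intergenic one at chr14:100659491-100659784, nearest to DEGS2, a sphingolipid desaturase gene, with 13.8-fold enrichment on 40 fragments, and one 3237 bp downstream of a TSS of SRF, encoding serum response factor, at chr6:43142119-43142352 with 12.8-fold enrichment on 32 fragments. The first lay 33682 bp upstream of the DEGS2 TSS and 161 bp from a shared region. The second stood alone, 2015 bp from a shared region. In B1 they were an intronic member of TBC1D5, a gene of endosomal trafficking, at chr3:17443512-17443847 (8.26-fold, 32 fragments), and an intronic one in the long non-coding RNA gene ENSG00000286186 at chr18:77218745-77218943 (7.79-fold, 22 fragments). In B2 they were an intronic member of HSPG2, the gene of the basement membrane proteoglycan perlecan, at chr1:22257846-22258073 (6.57-fold, 19 fragments), and an intergenic one at chr20:52532048-52532406 (6.53-fold, 21 fragments).

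Genes were also sorted by the number of replicates with a peak in their TSS windows. Of 17620 genes with such a peak in any replicate, 654 had it in exactly 1 (3.71%), which was A for 455, B1 for 138 and B2 for 61. For 602 of these genes the peak was a one-replicate region, and for the other 52 it was 1 replicate's peak of a region that other replicates shared but that reached the window in 1 list only. Among protein-coding genes 323 of 12692 (2.54%) were of this kind, and among long non-coding RNA genes 237 of 4075 (5.82%).

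The protein-coding genes with the strongest such peaks were, in A, FRRS1, a ferric reductase gene, at chr1:100231913-100232157 with 11.3-fold enrichment on 28 fragments, NACAD at chr7:45128311-45128541 (11.0-fold, 32 fragments), the collagen VI gene COL6A2 at chr21:47518039-47518330 (10.9-fold, 27 fragments) and SPATC1L at chr21:47604091-47604362 (10.9-fold, 27 fragments). All 4 summits lay in introns, 130 to 159 bp downstream of a TSS, and no shared region was within 22 kb of them. COL6A2 and SPATC1L lie close together on chromosome 21 and are separate members.

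In B1 the corresponding genes were RUNDC3B at chr7:87257724-87257987 (6.82-fold, 19 fragments), ILDR2 at chr1:166944429-166944656, GUCY1A2 at chr11:106888576-106888847 and GRAMD1B, a carrier of cholesterol between membranes, at chr11:123380685-123380840. The last 3 had the same values, 6.14-fold on 17 fragments, since each lay on the genome-wide background. In B2 they were SPAAR at chr9:35908405-35908586 (6.57-fold, 19 fragments), GUCY1B1 at chr4:156680166-156680387 (6.24-fold, 18 fragments), LRRIQ1 at chr12:85430168-85430348 (5.66-fold, 20 fragments) and METTL7B at chr12:56075477-56075694 (5.65-fold, 21 fragments). GUCY1A2 and GUCY1B1 encode subunits of the nitric oxide receptor guanylyl cyclase. The peak lists hold no value for a place without a peak, so the enrichment of these promoters in the other replicates is not known. The SPAAR summit lay 1006 bp upstream of the nearest TSS, so the peak reached the TSS window only with its edge. For SPAAR a peak of another replicate lay 149 bp away.

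The shares differed between gene lists. Of 17 neurotransmitter receptor genes with a window peak in any replicate, 6 had it in exactly 1 (35.3%), as did 3 of 8 clustered protocadherin genes (37.5%), 5 of 19 collagen genes (26.3%), 1 of 5 keratin genes and 3 of 20 chemokine and interleukin genes, beside 2.54% over all protein-coding genes. The shares were 2 of 32 for voltage-gated ion channels, 7 of 113 for developmental transcription factors, 8 of 211 for solute carriers and 6 of 454 for zinc finger genes. No such gene was found among 86 cytosolic ribosomal protein genes, 20 genes of the invasive melanoma state, 18 ADAM and ADAMTS genes, 16 integrin genes, 10 genes of the TGF-beta list, 8 melanocyte lineage genes, 7 MMP genes, 5 WNT genes and 1 olfactory receptor gene. These shares are a description of lists of unequal and often small size. They count genes and not regions. PMEL, a melanocyte lineage gene with the strongest member of A near its TSS, had a window peak in all 3 replicates.

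The neurotransmitter receptor genes were GABRB1 (6.62-fold, 16 fragments), GRIN1 (6.28-fold, 18 fragments), and the neighbours GABRB2 and GABRA6, which shared 1 peak of 5.45-fold on 13 fragments at chr5:160974922-160975261, all in A, with GRM8 (4.77-fold, 13 fragments) and GRIA2 (3.10-fold, 10 fragments) in B1. They encode subunits of GABA-A and glutamate receptors. The GRM8 and GABRB1 summits lay 599 and 956 bp from the nearest TSS of the gene. The protocadherin genes were PCDHB16 (6.40-fold), PCDHB2 (5.30-fold) and PCDHA5 (4.76-fold), all in A, with summits 81 to 145 bp downstream of their TSSs.

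Of the collagen genes, COL6A2, COL11A2 (8.78-fold, 26 fragments) and COL9A2 (6.23-fold, 15 fragments) had their peak in A, and COL25A1 (4.93-fold, 14 fragments) and COL5A2 (3.94-fold, 11 fragments) in B2. KRT15, a basal keratin, had one in A (5.98-fold). The chemokine and interleukin genes were IL12B (5.92-fold) and CCL2 (5.44-fold) in A and IL1A (2.95-fold) in B1. The ion channel genes were CACNB4 (6.65-fold) in A and KCNV1 (3.75-fold) in B1.

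Of the developmental transcription factors, FOXO3B (7.79-fold), DLX5 (7.01-fold), FOXO6 (6.55-fold), HOXD11 and NKX2-1 (each 5.45-fold on 13 fragments) had their peak in A. FOXO3B is a copy of FOXO3, so reads may be split between them. HOXA9 differed from the rest: its peak in B1, 24.6-fold on 71 fragments, belonged to a region that all 3 replicates shared, and its summit lay 1603 bp downstream of the nearest HOXA9 TSS. The zinc finger genes were ZNF492 (8.54-fold), ZNF469 (7.40-fold), ZNF98 (6.62-fold), ZNF350 (5.98-fold), ZNF630 (5.06-fold) and ZNF536 (3.99-fold), all in A. The solute carriers ranged from 3.98-fold at SLC9A9 to 8.57-fold at SLC29A4, and of the 8 all but SLC29A2 (4.77-fold, in B1) had their peak in A, namely also SLC16A4, SLC27A3, SLC1A1, SLC2A12 and SLC12A5.

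The strongest member of B1 led to a further pattern, chosen for description after its value was seen. It lay at chr2:178097875-178098176 with 13.4-fold enrichment on 81 fragments, and its summit was in exon 3 of NFE2L2, the gene of a transcription factor of the oxidative stress response, 457 bp from a shared region. Exon 3 is 90 bp long, at chr2:178097978-178098067. The modelled background there was 5.11 fragments, above the genome-wide 1.93 of that list. In B1 every exon of the 5 in the canonical NFE2L2 transcript held a summit, with 14.1-fold enrichment at exon 1 (where A and B2 had promoter peaks with summits outside the exon), 29.9-fold at exon 2, 49.8-fold at exon 4 and 66.2-fold at exon 5. A had peaks of 9.72-fold, 7.13-fold and 10.6-fold at exons 2, 4 and 5, and B2 had peaks of 6.37-fold and 5.91-fold at exons 4 and 5. The values of B1 exceeded those of A and B2 at each exon that they had in common.

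A count of one-replicate summits in exons after the first of canonical protein-coding transcripts was then made. For A it found 76, or 3.23% (95% Wilson interval 2.59 to 4.02%), for B1 51, or 5.47% (4.18 to 7.12%), and for B2 23, or 4.41% (2.95 to 6.52%), beside 2.08%, 2.03% and 2.19% of shared summits. Shared peaks were more often in TSS windows, so the classes are not alike in position. Outside TSS windows 2.96%, 5.34% and 4.57% of one-replicate summits lay in such exons, and shared summits were not counted there. In A and B2 each of the 73 and 23 genes concerned had 1 such exon. In B1, 40 of 42 genes had 1 and the other 2 had 3 or more. One of these, STIM1, encoding the calcium sensor of the endoplasmic reticulum, had 3.

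The 3 one-replicate regions of STIM1 had their summits in exons 7, 10 and 13 of 13, at 4.79-fold, 4.57-fold and 6.38-fold. Whether the exon-centred fragments of B1, and of A and B2 at NFE2L2, came from chromatin or spliced sequence such as cDNA was not tested. Their fold enrichment, also in the NFE2L2 regions of 2 or 3 replicates, need not measure PHF8 binding.

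**Figure D5:**
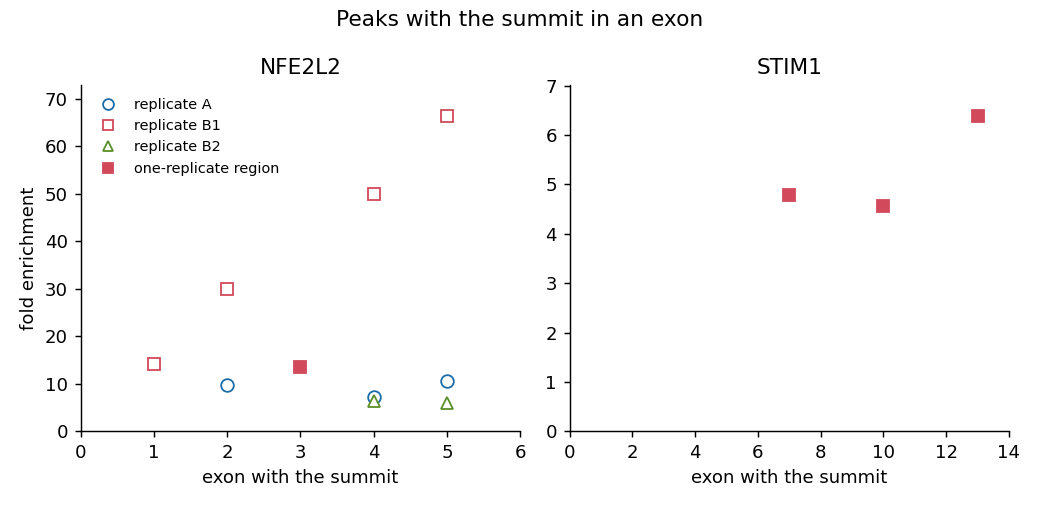
Fold enrichment (vertical axis) of peaks whose summit lay in an exon of the canonical transcript, by exon number (horizontal axis), for NFE2L2 and STIM1. Filled symbols are one-replicate regions and open symbols are regions found in 2 or 3 replicates. All 3 points of STIM1 are one-replicate regions of B1. At NFE2L2, B1 lies highest at exons 2, 4 and 5, and it alone has a point at exons 1 and 3.

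Regions of raised background were few among the members. The background exceeded 2 times the genome-wide level at 7.77% of one-replicate peaks of A, 3.32% of those of B1 and 2.49% of those of B2, and at 7.13%, 6.04% and 6.20% of shared peaks. The extreme was a B1 region on chromosome 20 at chr20:26190102-26190263, where 84 fragments over a background of 40.0 gave 2.07-fold enrichment.

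Members were spread over all chromosomes with peaks. Per 100 shared regions A had 14.7 members, B1 had 5.81 and B2 had 3.25. A had the highest ratio on each chromosome, between 9.30 on chromosome 13 and 18.9 on chromosome 20. On chromosome X the ratios were 17.8, 3.51 and 1.41. On chromosome 20 B2 exceeded B1, with 29 members against 16.

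Short motifs were counted on both strands within 100 bp of each summit, with each motif counted once per window. The AP-1 motif TGANTCA was present in 4.70% ± 0.36 (SD, n = 3) of one-replicate windows and 1.95% ± 0.03 of shared windows, beside 4.80% of windows of the same length at all annotated TSSs. Among members standing alone outside TSS windows it was present in 6.08% ± 0.17, and among shared peaks outside TSS windows in 4.58% ± 0.50. The GC box GGGCGG was instead less frequent in one-replicate than in shared windows, with 23.1% ± 0.39 of one-replicate, 44.9% ± 0.33 of shared and 29.2% of TSS windows. TATAAA was found in 5.93% ± 0.23, 1.84% ± 0.16 and 8.12%, and CCAAT in 17.2% ± 0.53, 10.7% ± 0.19 and 24.1%. For each of these motifs, windows of two-replicate peaks were nearer to one-replicate than to shared windows. They held AP-1 in 4.25% ± 1.12, the GC box in 27.0% ± 0.36, TATAAA in 4.74% ± 0.86 and CCAAT in 16.5% ± 0.66.

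TEAD motifs (GGAATG) were in 10.4% of one-replicate, 7.27% of shared and 9.23% of TSS windows. In that order, E-boxes (CACGTG) were in 4.15%, 3.35% and 4.37%, and ETS motifs (CCGGAAG) in 2.32%, 3.87% and 6.69%. Part of the CTCF core (AGGGGGC) was in 7.78%, 9.73% and 7.60%. Two-replicate windows held these motifs in 9.84%, 3.30%, 2.84% and 8.46% respectively, nearer to one-replicate windows for all but the E-box. The CRE motif (TGACGTCA) and part of the NRF1 motif (GCATGCGC) were in 1.73% of windows or fewer in every class. Base composition differed between the classes, as given above, and its part in these shares was not tested.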

How the data were processed

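PHF8 ChIP-seq was performed in SKMEL-147 cells by the authors, who aligned reads of 3 ChIP and 2 input libraries to hg19 with Bowtie2 and called narrow peaks with MACS for each replicate separately, with cutoffs of 1.5 on the fold over input and 0.05 on the q-value. Which input served which list, read totals and tool versions are not given in the sources used here. The deposited peak lists hold, per peak, a fold enrichment (a ratio), a −log10 p-value, a −log10 q-value, a display score and the summit position. All listed peaks passed both cutoffs (21506 in A, 20882 in B1, 20120 in B2).

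Peaks of the 3 lists were merged with Python 3.11.15 and pandas 2.3.3. Summit fragments and background were solved from fold enrichment and p-value, which gave a whole number within 0.001 for 100% of peaks, and the steps were tested on simulated data. TSSs, exons and UTRs came from GENCODE release 44 lifted to GRCh37 and sequence from the GRCh37 primary assembly (hg19). Windows of 1 kb on either side of TSSs, 250 bp (CpG) or 100 bp (motifs) on either side of summits were used. Shares were compared per replicate and tested over the 3 differences by exact sign-flipping (two-sided) in 4 measures, where no adjustment can lower the smallest p of 0.25.

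Named genes were, per replicate, the 4 strongest members at protein-coding genes with a window peak in that replicate only, the 2 strongest outside TSS windows, and list genes with a window peak in exactly 1 replicate (all, where a list had at most 10). The members, lists and tests were chosen with earlier results of these data known. Repeat content was not analysed here, and some results that meet these rules are not reported here.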

Additional observations from a re-analysis of the deposited data

How the results depend on the processing

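The differences in TSS window share, CpG-island-like share, G or C content and proximity to shared regions kept the sign of their mean under every alternative run, none of which could pass a threshold with 3 replicates. The number of one-replicate regions fell from 3810 to 2405 when peaks up to 200 bp apart were joined and to 1729 when those up to 1000 bp apart were, and joining peaks that only touch, an alternative added after seeing the data, gave 3804. Genes with a window peak in exactly 1 replicate numbered 323 in place of 654 with protein-coding genes only. The excess within 5 kb of a shared region was 1.13 points ± 3.07 with peaks up to 1000 bp apart joined, since nearer neighbours then merge, and no longer of one sign in all replicates, and 12.5 points where merging needed 50% of the shorter peak. The TSS share difference was -56.3 points with peaks up to 1000 bp apart joined and -52.9 points for one-replicate peaks over 1 kb from a shared region, chosen after seeing the data. Leaving out 1 replicate, with membership redefined on the other 2, gave 3627 to 4522 regions, TSS differences of -29.4 to -26.0 points, CpG-island-like differences of -45.6 to -42.9, G or C differences of -9.58 to -8.58, proximity differences of 7.36 to 8.54 and 586 to 788 genes. No groups of samples were compared, the peak lists forming a single group, and the tests were paired by list. One-replicate and shared peaks were compared within each list. Without read totals, a weak peak in 1 list and its absence from another cannot be told apart from a difference in depth.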
